A study of Rattus norvegicus with 23 samples.

Results

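The 99 genes described here are skeletal muscle genes that stood above the EV level in every MIV library of a rat nerve repair series. They were chosen on measured values in 3 steps from 32545 Ensembl gene identifiers, with levels in CPM (a gene's count as a part of the library's total, scaled to a fixed sum). A mean of at least 5 CPM in healthy muscle and at least 4 times the means of healthy nerve and healthy vein left 544 muscle genes. In 108 of these the lowest of the 6 MIV libraries was above the highest of the 6 EV libraries, and 9 of the 108 were left out by a fixed list of 18 identifiers. The remaining 436 muscle genes overlapped between MIV and EV. Because the rule used healthy muscle against nerve and vein and MIV against EV, those differences are given below as a description and support nothing.

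The libraries were poly-A RNA-seq from adult female wild-type Rattus norvegicus. In the repaired animals the median nerve had been transected with a gap of 8 mm. The MIV groups (repair after cut injury and MIV, n = 3 at day 3 and n = 3 at day 7) carried, by the series design, a muscle-in-vein graft of 10 mm. The EV groups (repair after cut injury, n = 3 at day 3 and n = 3 at day 7) had a treatment label that does not name MIV. The reference tissues were healthy and had no repair: 5 libraries of median nerve, 3 of the adductor muscle and 3 of the epigastric vein. The labels do not say whether libraries of a group came from different animals, so the p-values describe the spread between libraries, which may be technical.

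In a muscle-in-vein graft a segment of vein is packed with skeletal muscle fibres and sewn between the nerve stumps. The fibres keep the vein from collapsing, and their basal lamina gives migrating Schwann cells and regrowing axons a surface to follow. Skeletal muscle fibres are large multinucleate cells whose messenger RNA is dominated by the contractile apparatus, its calcium supply and its energy metabolism. Grafted fibres have lost their nerve and, at first, their blood supply, and such fibres commonly degenerate while resident muscle stem cells start to rebuild them.

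No gene of the set is named by symbol. The count table holds Ensembl identifiers only, and the RefSeq gene table used with it carries no Ensembl identifiers (0 matched). The 15 lists of sarcomere, calcium, metabolic, myogenic and other cell type genes drawn up by symbol therefore had no measured member, the muscle label could not be checked against named markers, and no sequences are shown. The name muscle genes therefore says only that the rule was met, which the tissue shares restate: the 99 genes took 13.6% ± 1.05 of counts in muscle (SD, n = 3), 0.0380% ± 0.00663 in nerve (SD, n = 5) and 0.0230% ± 0.00232 in vein (SD, n = 3). Identifiers are given for at most 2 genes in each direction of a comparison.

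Library totals ran from 12504035 to 17314324 counts. The MIV libraries differed widely from each other within a day, and MIV day 7 replicate 2 stood apart from the other day 7 libraries. Its level was below both of them for 95 of the 99 genes, and below MIV day 3 replicate 1 for 95. MIV day 3 replicate 1 was above the other day 3 libraries for 98 of the 99. Genes picked by the same level and fold clauses for healthy nerve (671 genes) took 1.08% of counts in MIV day 7 replicate 2 and 1.22% to 2.42% in the other 5 MIV libraries. The matching 527 vein genes took 2.41% in that library and 2.07% to 3.65% in the other 5. The part of these differences in the results was not tested.

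The summed share of the 99 genes shows the spread first. At day 3 they took 0.772%, 0.166% and 0.136% of counts in MIV replicates 1, 2 and 3. At day 7 they took 2.02%, 0.124% and 5.31%. Replicates 1 and 3 at day 7 were thus above all day 3 libraries, whereas replicate 2 was below them all. In EV the share ran from 0.0190% to 0.0286% at day 3 and from 0.0211% to 0.0247% at day 7. It was 0.0205% to 0.0252% in healthy vein and 0.0297% to 0.0479% in healthy nerve, so every EV library was below every nerve library. That gap in the sum does not describe the members as a set. ENSRNOG00000011754 alone held a mean of 149 CPM in nerve, against 0.163 CPM in EV at day 3 and 0.502 CPM at day 7. The median log2 fold change of the members in EV against nerve was positive, at 0.27 and 0.14. In bulk tissue, fewer muscle cells and less of these RNAs per cell cannot be told apart.

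**Figure D1:**
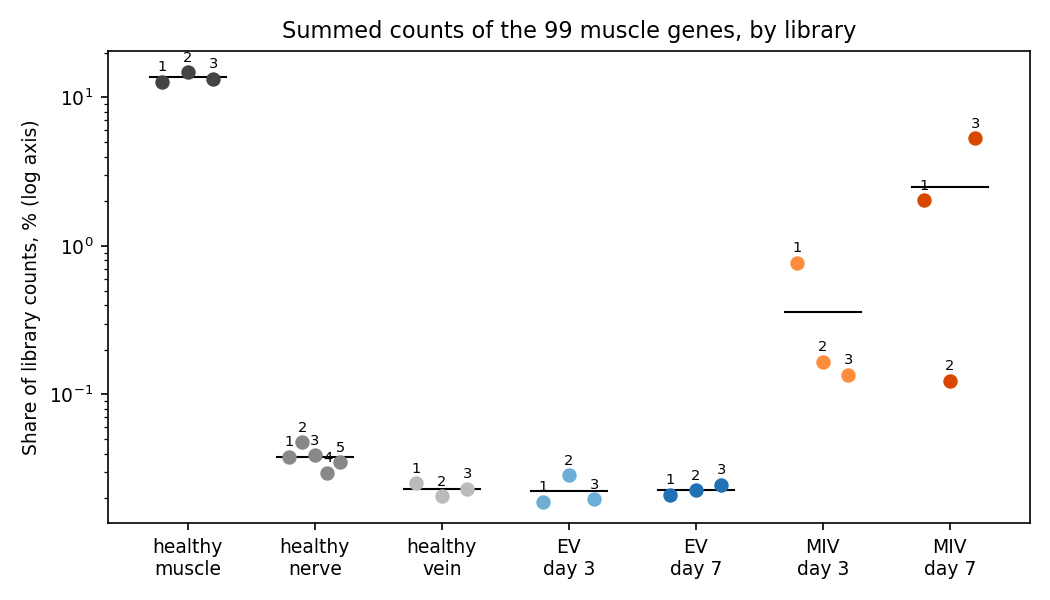
Share of each library's counts taken by the 99 genes, in percent on a log axis, by group; points are libraries numbered by replicate and bars are group means. The MIV day 7 libraries spread from 0.124% to 5.31%, and every EV library lies at or below 0.0286%.

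Gene by gene, most members had the same highest MIV library, while the lowest varied. The highest MIV level was in day 7 replicate 3 for 95 genes, in day 3 replicate 1 for 3 and in day 7 replicate 2 for 1. Day 7 replicate 3 was highest and day 7 replicate 1 second for 73 genes. The lowest MIV level was in day 7 replicate 2 for 48 genes, in day 3 replicate 3 for 39 and in day 3 replicate 2 for 12. The highest MIV library exceeded the lowest by a median of 51.1-fold over the members, with a range of 3.38-fold to 2690-fold. Over the 6 MIV libraries, pairs of members had a median Pearson r of 0.95 on log2(CPM + 1), with a lower quartile of 0.84 and a lowest value of -0.67. For pairs of the 436 overlapping muscle genes the median was 0.64. All pairs share the same libraries, so these values describe the set and are not independent of each other.

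**Figure D2:**
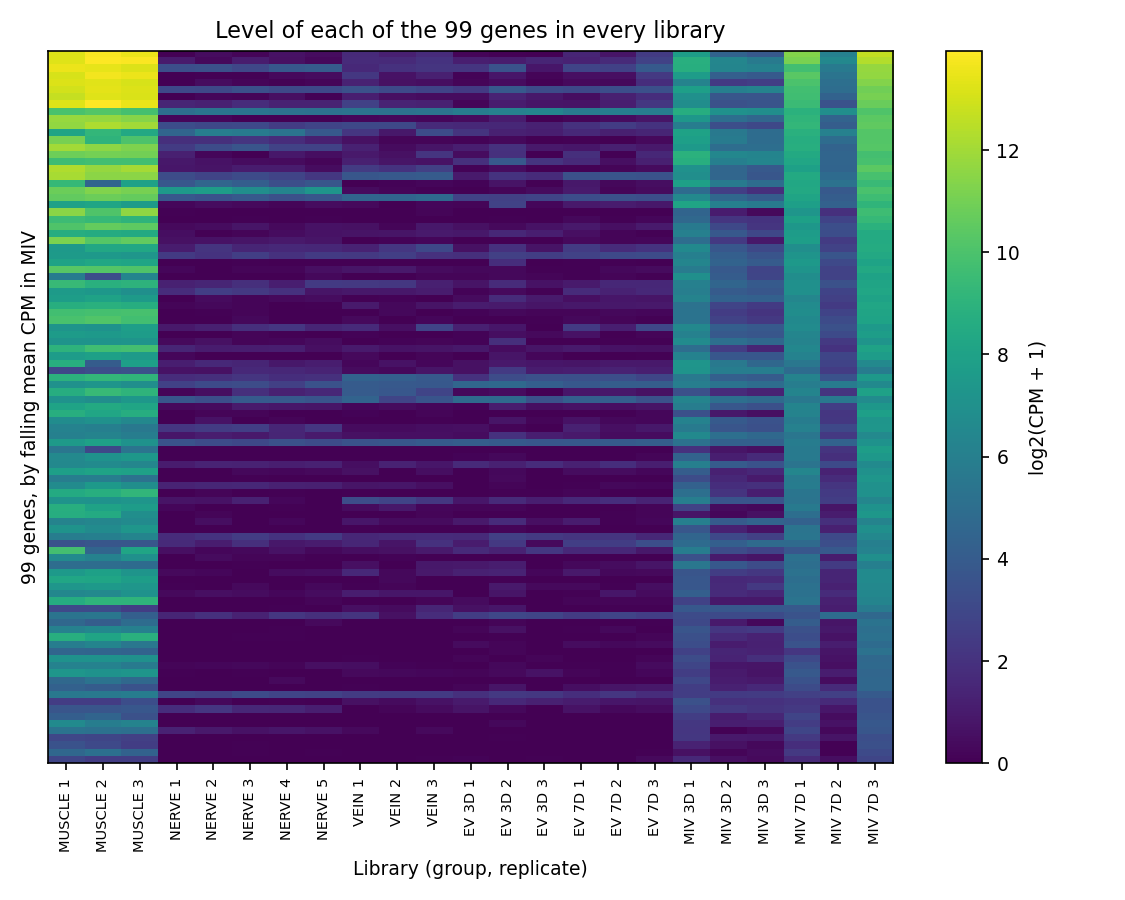
Level of each of the 99 genes (rows, ordered by mean CPM in MIV) in the 23 libraries (columns), as log2(CPM + 1). The 3 muscle libraries are brighter than nerve and vein for nearly every gene, the EV, nerve and vein libraries are dark for most genes, and the MIV columns differ in brightness as whole columns, with day 7 replicate 3 the brightest and day 7 replicate 2 close to day 3 replicates 2 and 3.

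The gap to EV, which the rule fixed, ranged from marginal to very large. The lowest MIV level over the highest EV level was 2.64 at the median over genes with an EV count, with quartiles at 1.45 and 4.90, and reached 111. Among genes with an EV count, the 3 just inside the limit had ratios of 1.005, 1.02 and 1.03. The 3 just outside had 0.999, 0.986 and 0.983. For the 7 members with no count in EV, any count in every MIV library was enough. At the tissue limit the 3 genes just inside were 5.35, 6.39 and 6.52 times the higher of nerve and vein, and the 3 just outside 3.84, 2.93 and 2.09 times. At the level limit the 3 just inside had 5.30, 6.01 and 6.23 CPM in muscle, and the 3 just outside 4.26, 3.95 and 3.73 CPM. Over all 23446 identifiers with a count, 0.763% (179) stood above EV in every MIV library.

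ENSRNOG00000013262 had the highest mean CPM of the set in MIV. CPM is not corrected for gene length, so this order reflects length as well as abundance. Its level was 217, 20.3 and 14.1 CPM in MIV day 3 replicates 1 to 3 and 2590, 67.2 and 6444 CPM in MIV day 7 replicates 1 to 3. In EV it was 0.160, 0.0753 and 0 CPM at day 3 and 1.68, 0.705 and 4.32 CPM at day 7, and in healthy muscle 9946, 15080 and 11876 CPM. The lowest MIV library thus held 14.1 CPM against 4.32 CPM in the highest EV library. ENSRNOG00000017645, the next highest, was at 438, 83.0 and 52.2 CPM in MIV at day 3 and at 2244, 90.6 and 5166 CPM at day 7. EV libraries held 1.05 to 1.69 CPM of it at day 3 and 1.53 to 5.83 CPM at day 7. In both genes day 7 replicate 2 fell within the day 3 range, and no MIV library overlapped EV.

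The first of these genes made up 11.0% of the set's summed mean CPM in MIV, and the first 10 made up 52.0%. Member means over the 6 MIV libraries ran from 1.97 to 1559 CPM, with a median of 54.4 CPM. In healthy muscle they ran from 5.30 to 13369 CPM with a median of 214 CPM. Of the 99, 23 were among the 100 genes of highest CPM in healthy muscle, 22 had at least 1000 CPM there and 30 had under 100 CPM.

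In EV most members were near the detection limit. The median over members of the mean EV level was 0.467 CPM, 43 genes had at most 10 counts in every EV library, and 7 had no count in any of the 6. Between 15 and 42 of the 99 had no count in a given EV library, against 25 to 41 in a nerve or vein library and none in an MIV library, which the rule required. EV day 3 replicate 2 held the highest EV level for 37 genes. Its median over members was 0.753 CPM, against 0.160 and 0.0676 CPM in the other day 3 libraries.

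The 436 muscle genes that overlapped EV differed from the set in their baseline. Their median mean level was 4.07 CPM in EV at day 3, 3.00 CPM in nerve and 4.10 CPM in vein, against 0.319, 0.258 and 0.372 CPM for the 99. The median excess of muscle over the higher of nerve and vein was 9.93-fold for them and 601-fold for the 99, among genes with a count in either tissue. Of the 436, 393 had a higher mean in MIV than in EV, and MIV day 7 replicate 2 was the lowest MIV library for 194. These are consequences of the rule or descriptions of it, and were not tested.

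The contrast that the rule used is given for completeness. In the 12 repaired libraries, edgeR called 85 of the 98 members tested (1 member did not pass the filter on low counts) higher in MIV than in EV over both days and 0 lower (lower at an unadjusted p under 0.05, 0; DESeq2, 98 higher and 0 lower). Of all 15036 genes tested, edgeR called 1.42% higher and 0.12% lower, and DESeq2 3.94% and 1.47%. Without any one of EV day 3 replicates 1 or 3 or EV day 7 replicates 1 to 3, edgeR called 0 members. In those fits 0% to 0.013% of all genes were called higher, so the loss was not particular to the members. With the replicate number as a block it called 46 of them and 0.652% of all genes higher. It called 29 when EV day 3 replicate 2 was left out (0.388% of all genes higher). When any one MIV library was left out, it called 57 to 97 (0.678% to 4.21% of all genes higher).

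The time course within MIV asked whether these RNAs changed between days 3 and 7. The rule did not compare the days, but it asked every MIV library of both days to be above EV. Genes at or below EV in any MIV library were thus left out, which may shape the changes seen. The mean CPM at day 7 was above that at day 3 for 95 of the 99 members, but few passed the test. EdgeR's quasi-likelihood test called 9 of 98 members higher at day 7 and 0 lower (Benjamini-Hochberg adjusted p under 0.05 over 15036 genes, of which 7.39% were called higher and 8.09% lower). No member was lower at an unadjusted p under 0.05 or with DESeq2. The log2 fold change was positive for 95 of the 98, and its median was 2.37 (quartiles 1.49 and 3.29), against a median of 0.06 over all genes. At an unadjusted p under 0.05, 51 members were higher. The median SE of the log2 fold change was 1.12. Without MIV day 7 replicate 3 the log2 fold change was positive for 78 of 98 members, with a median of 1.15. In that fit 1 member was lower and 14 were higher at an unadjusted p under 0.05 (edgeR). Leaving out any other MIV library gave medians of 1.98 to 3.64. In CPM, 4 members had every day 7 library above every day 3 library, 3 of them among the 9. The share of all genes with such a gap was not counted, so nothing is read from the 4.

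ENSRNOG00000008210 had the largest called change. It was at 0.753, 0.199 and 0.522 CPM in MIV day 3 replicates 1 to 3 and at 31.9, 1.09 and 163 CPM in MIV day 7 replicates 1 to 3. The 3 day 7 libraries were all above the 3 day 3 libraries, although day 7 replicate 2 rested on 15 counts against 13 in day 3 replicate 1. The log2 fold change was 7.14 ± 1.59 SE (edgeR adjusted p = 0.0210). Healthy muscle held 418, 372 and 119 CPM of this gene and EV at most 0.131 CPM.

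ENSRNOG00000037645 came next, with no count in any EV, nerve or vein library. In MIV it was at 2.90, 0.728 and 0.464 CPM at day 3 and at 50.5, 3.35 and 212 CPM at day 7, again without overlap (log2 fold change 6.12 ± 1.60 SE, edgeR adjusted p = 0.0487). Against 3 counts over the 3 EV libraries of a day, the MIV mean was at least 18.4-fold higher at day 3 and 1233-fold at day 7. These bounds are for the group means (1.36 and 88.6 CPM), not for each library. The gap to EV was fixed by the rule. Healthy muscle held 43.0, 7.01 and 40.0 CPM, so muscle replicate 2 was below the others. The call was lost in 9 of the 12 fits that left out 1 library (adjusted p = 0.0558 to 0.163 where it was lost). The 9 called genes had log2 fold changes of 1.55 to 7.14.

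The count of 9 depended on single libraries. Leaving out day 7 replicate 1, 2 or 3 of MIV gave 3, 54 or 2 calls, while 4.17%, 12% or 5.59% of all genes were called higher. Leaving out day 3 replicate 1, 2 or 3 gave 30, 0 or 0 calls, while 6.37%, 2.18% or 1.71% of all genes were. The count was 5 without any one of EV day 3 replicate 2 or the 3 EV day 7 libraries, which are not in the contrast but enter the fit, its filter and its scaling (5.23% to 5.61% of all genes higher). The call of ENSRNOG00000008210 was lost without any one MIV day 3 library (adjusted p = 0.0506 to 0.0912). DESeq2 called 34 members and 13.7% of all genes higher, and edgeR over all 23 libraries 51 members and 14.3%, both including the 9.

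In EV no member passed the same test. EdgeR called 0 of 98 higher and 0 lower from day 3 to day 7, where 9.41% of all genes tested were called higher and 10.2% lower. At an unadjusted p under 0.05 the counts were 0 and 0. DESeq2 called 2 higher and 0 lower, where 14.6% of all genes were higher and 13.1% lower. The log2 fold change was positive for 47 of 98 and its median was 0.00 (quartiles -0.81 and 0.78). The median SE, over genes whose estimate was not exactly 0, was 1.70, and 0 calls do not show that levels were equal. The rule put a ceiling on every EV library, and 43 members had at most 10 counts in each of them. Few calls were thus favoured by the choice, and nothing is read from the count.

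The difference between the MIV and EV time courses was tested directly. The estimate was positive for 90 of 98 members with a median of 2.33 on the log2 scale, but its median SE was 2.13. EdgeR called 0 members, higher or lower, and 0% of all genes in either direction (adjusted p of 0.906 or more for every member). At an unadjusted p under 0.05, 7 members were higher and 0 lower, and DESeq2 called 0. A difference in time course between the series was therefore not shown for any member.

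**Figure D3:**
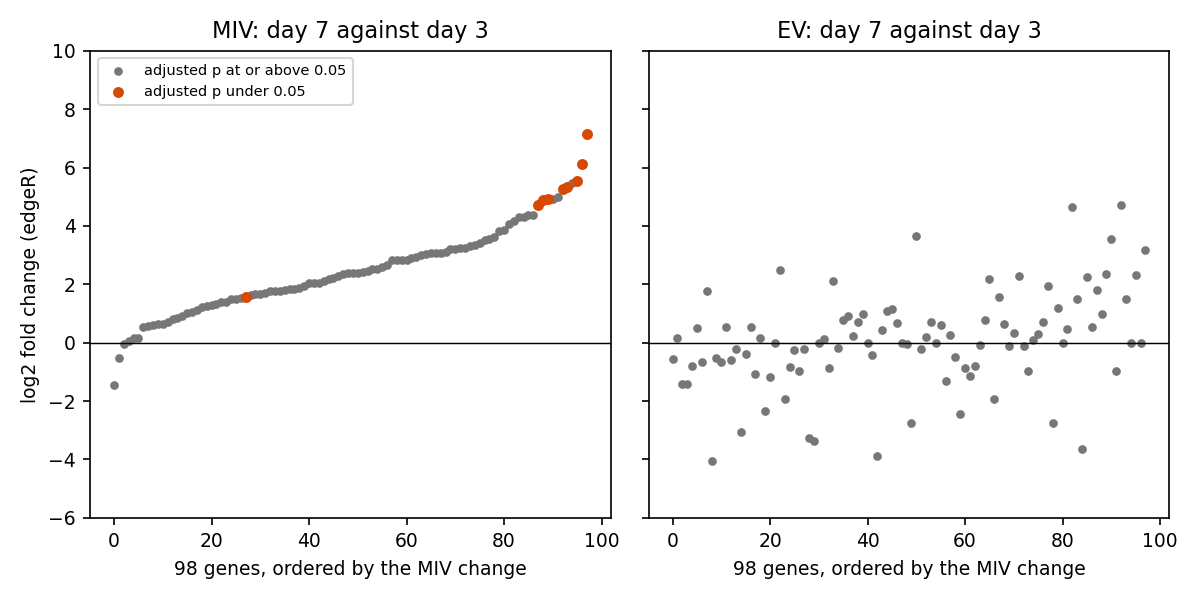
edgeR log2 fold change of 98 genes from day 3 to day 7 in MIV (left) and EV (right), in the same gene order; coloured points passed an adjusted p of 0.05. In MIV 95 points lie above 0 and 9 are coloured, and in EV 47 lie above 0 and none is coloured.

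Because whole libraries differ in their content of these RNAs, each gene was also set against the rest of the set within its library. The relative level was log2(CPM + 1) minus the median of the 99 genes in that library, a measure chosen after the data had been examined. A change of all members by 1 factor cancels in it, apart from the pseudocount of 1 CPM. It therefore describes the make-up of the set, in which genes can only rise against each other.

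The make-up differed between the days. For 31 of the 99 genes all 3 day 7 libraries were above all 3 day 3 libraries, and for 21 they were all below. Over the 544 muscle genes by the tissue clauses, the same held for 12.5% (68) and 7.72% (42). The 544 include the 99 and were set against the median of the 99, not their own, so they are not a like background. The low day 7 replicate 2 is part of each of these counts. Its members' median of 2.66 on the log2(CPM + 1) scale was below all day 3 libraries (2.84 to 5.31), while the other day 7 libraries stood at 5.92 and 7.32. The lowest and the highest median were thus both at day 7. Without day 7 replicate 2 the counts were 43 higher (43.4%) and 40 lower (40.4%), against 16.9% and 56.8% of the 544 muscle genes. The share of members that were lower was above that of the muscle genes with all libraries (21.2% against 7.72%) and below it without that library. As the muscle genes also had no reference of their own, nothing is read from the shares, for gains or losses. Each count rests on 3 libraries against 3, and no test is given.

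ENSRNOG00000047124 showed the largest relative gain. Its relative level was 0.94, -0.87 and -0.24 in MIV day 3 replicates 1 to 3 and 4.09, 2.42 and 4.02 in MIV day 7 replicates 1 to 3. In CPM it went from 75.2, 4.17 and 5.04 to 1031, 32.9 and 2585. Day 7 replicate 2, which held less than every day 3 library for 48 members, was above day 3 replicates 2 and 3 here. ENSRNOG00000013262 followed, with 2.46, 1.17 and 1.08 at day 3 and 5.41, 3.43 and 5.33 at day 7.

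ENSRNOG00000027954 showed the largest relative loss. Its relative level was 1.89, 2.65 and 3.06 at day 3 and -1.03, -0.16 and -1.47 at day 7. In CPM it was at 146, 58.5 and 58.6 at day 3 and at 28.8, 4.66 and 56.7 at day 7, so here the absolute level was also lower in every day 7 library than in every day 3 library. EdgeR did not call that difference (log2 fold change -1.44 ± 0.79 SE, adjusted p = 0.235). ENSRNOG00000018943 was next, with relative levels of 1.96, 2.38 and 1.81 at day 3 and -0.38, 0.17 and -0.76 at day 7.

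The relative change was larger in genes of higher level in healthy muscle. That level did not enter the calculation of the change, but it did enter the choice of the genes. The rule also left out genes at or below EV in any MIV library. This choice may shape the relation to muscle level, and its part was not tested. Over the 99 genes, the change correlated with log2 CPM in healthy muscle (Pearson r = 0.61, Spearman rho = 0.58). These are given as a description, since the genes share libraries and CPM is not corrected for length. Among the 33 genes of highest level in muscle (432 to 13369 CPM), 18 gained and 2 lost without overlap, with a median change of 1.03. Among the 33 of lowest level (5.30 to 110 CPM), 5 gained and 9 lost, with a median of -0.58. The middle 33 (132 to 406 CPM) had 8 and 10, with a median of -0.05. With a pseudocount of 0.1 CPM the counts over the set were 26 and 24 (26.3% and 24.2%, against 12.9% and 9.74% of the muscle genes), and r was 0.54.

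**Figure D4:**
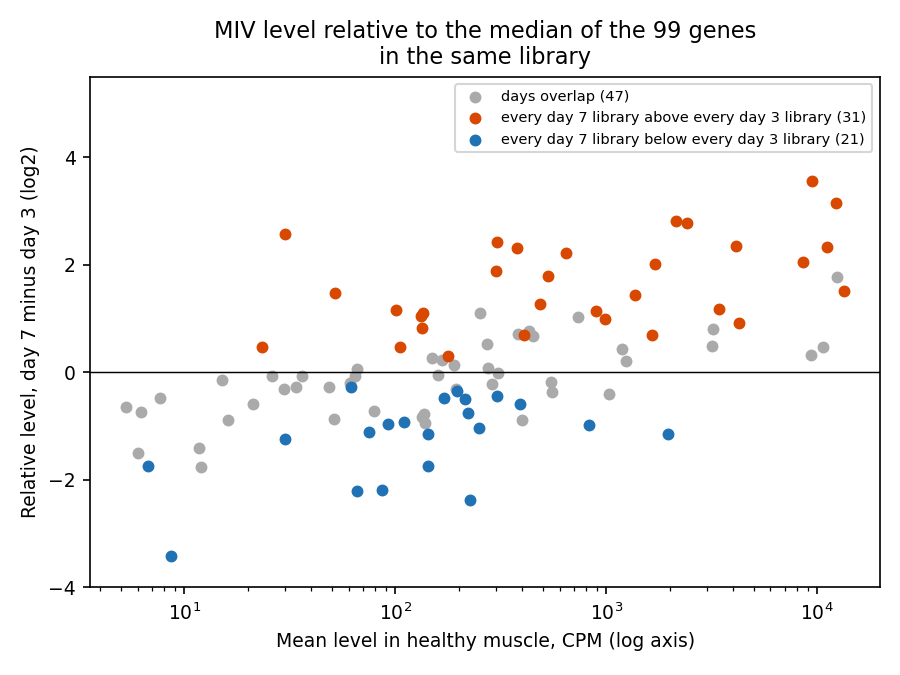
Relative level at day 7 minus day 3 in MIV (log2, each gene against the median of the 99 genes in its library) by mean CPM in healthy muscle on a log axis; each point is a gene. The 31 genes with every day 7 library above every day 3 library lie mostly to the right, and the 21 with every day 7 library below lie mostly below 1000 CPM.

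The classes were cut by day 7 minus day 3 in these libraries, so a lower level at day 3 among genes that gained is partly fixed by the choice, and the levels are a description. The 31 genes that gained had a median of 1.47% of their healthy muscle CPM at day 3 and 21.3% at day 7. The 21 that lost had 29.3% at day 3 and 52.8% at day 7. The median for the genes that gained was 644 CPM in healthy muscle and 0.169 CPM in EV, and for those that lost 143 CPM and 0.810 CPM. Of the 9 genes called higher at day 7, 8 were among the 31.

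The MIV nerves were then set against healthy adductor muscle, to describe how far the members reached the level of intact muscle. Since the rule asked for a high level in muscle, a lower level in MIV is favoured by the choice, and nothing is read from the count. In 23 libraries, edgeR called 95 of 99 members lower than healthy muscle at day 3 and 1 higher, where 33% of 15954 genes were called lower and 33.5% higher. At day 7 it called 79 lower and 0 higher, where 31.3% were lower and 34.7% higher. For the higher calls at day 7, the count at an unadjusted p under 0.05 was 0, and DESeq2 called 0 (35.5% of all genes). The median log2 fold change of the members was -5.47 at day 3 and -3.07 at day 7, with quartiles of -7.35 and -3.87 at day 3 and -4.03 and -2.24 at day 7.

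These values depend on the scaling, and the cause of that was not tested. With library totals in place of edgeR's TMM factors (0.410 to 0.421 for the muscle libraries), the median of all genes moved by 1.49 at day 3 and 1.41 at day 7. Relative to that median the members stood at -5.54 and -3.24 with TMM and at -5.55 and -3.24 with library totals. The called genes of the whole table that were higher in MIV went from 50.4% to 84.9% at day 3 and from 52.6% to 88.4% at day 7. On library totals 47 members were called lower and 2 higher at day 7, where 9.08% of all genes were lower and 69% higher. At day 3, 82 members were lower and 1 higher, where 11.8% of all genes were lower and 66.6% higher.

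On the library total scale each MIV library can be read as a percentage of healthy muscle. The median over the 99 genes was 14.8%, 3.23% and 2.08% in day 3 replicates 1 to 3 and 26.1%, 1.91% and 70.2% in day 7 replicates 1 to 3. In day 7 replicate 3, 34 genes exceeded the mean of healthy muscle, against 10 in replicate 1 and 0 in replicate 2. By group means, 4 genes exceeded muscle at day 3 and 11 at day 7, and the highest were at 1014% and 348%.

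**Figure D5:**
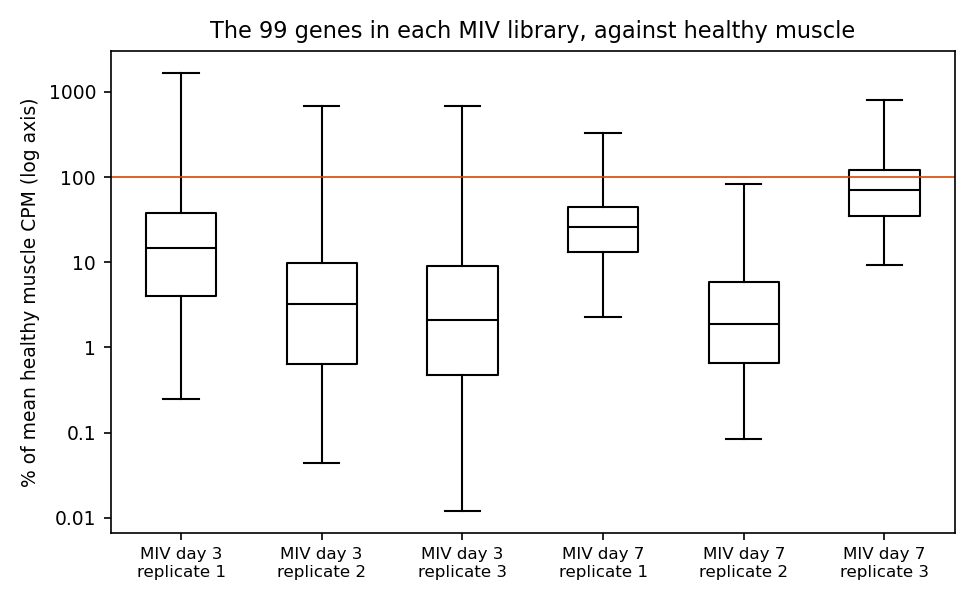
CPM of the 99 genes in each MIV library as a percentage of their mean in healthy muscle, on a log axis; boxes show quartiles and median, whiskers the lowest and highest gene, and the coloured line 100%. Medians run from 1.91% in day 7 replicate 2 to 70.2% in day 7 replicate 3.

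ENSRNOG00000027954 was the member called higher than healthy muscle at day 3. Its 3 MIV day 3 libraries (146, 58.5 and 58.6 CPM) were all above the 3 muscle libraries (6.88, 9.21 and 9.82 CPM), with a log2 fold change of 1.85 ± 0.68 SE (edgeR adjusted p = 0.0218). The call was lost without MIV day 3 replicate 1 (adjusted p = 0.135) or muscle replicate 1 (adjusted p = 0.0644). At day 7 its libraries (28.8, 4.66 and 56.7 CPM) overlapped muscle.

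The largest deficits at day 3 were in ENSRNOG00000008210 and ENSRNOG00000047124, at -10.71 ± 1.36 SE and -9.86 ± 1.53 SE (edgeR adjusted p = 2.13e-06 and 1.34e-05). At day 7 they were in ENSRNOG00000055450 and ENSRNOG00000019745, at -6.08 ± 0.96 SE and -5.33 ± 1.24 SE (edgeR adjusted p = 2.85e-05 and 0.000965). ENSRNOG00000055450 was at 8.98, 0.583 and 36.3 CPM in MIV day 7 replicates 1 to 3 and at 283 to 453 CPM in muscle. ENSRNOG00000019745 was at 714, 10.5 and 1745 CPM and at 9823 to 15669 CPM in muscle. In both genes even the highest MIV library was below the lowest muscle library. This held for 52 of the 79 members called lower at day 7 and 87 of the 95 at day 3. How many of all genes lay below muscle in this way was not counted.

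EV nerves were compared with healthy nerve to learn whether members also differed from intact nerve in the series whose label does not name MIV. The rule held nerve below muscle by a fixed factor and EV below MIV, so high levels in either group were made less likely by the choice. At day 3 edgeR called 7 of 99 members higher in EV and 11 lower, where 30% of all genes were called higher and 30.7% lower. At day 7 it called 5 higher and 10 lower, where 24.1% and 24% were called. The shares of members called were below those of all genes in each direction. Median log2 fold changes were 0.27 and 0.14, with a median SE of 1.46 and 1.38. The called members had log2 fold changes of 1.16 to 5.01 and -9.81 to -0.92 at day 3, and of 0.87 to 6.10 and -8.35 to -1.32 at day 7. With library totals the median of all genes moved by 0.12 and 0.17, and calls that were higher at day 7 went from 50.1% to 62.3%.

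ENSRNOG00000011754 was the member with the largest fall from nerve. It was at 77.3 to 219 CPM with a median of 153 CPM over the 5 nerve libraries, and at 0, 0.151 and 0.338 CPM in EV day 3 replicates 1 to 3. EV libraries held 1.02, 0.157 and 0.327 CPM at day 7, so the groups were far apart at both days. The log2 fold change was -9.81 ± 1.44 SE at day 3 and -8.35 ± 1.29 SE at day 7 (edgeR adjusted p = 9.68e-06 and 3.27e-05). This gene was thus present in healthy nerve as well as in muscle (1780 to 2488 CPM), and nearly absent from vein (0.0643 to 0.349 CPM). In MIV it was at 28.2, 4.90 and 2.67 CPM at day 3 and 345, 14.0 and 975 CPM at day 7, so that its day 7 libraries lay on both sides of the nerve range.

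ENSRNOG00000006086 had no count in any EV library and 0.583 to 1.56 CPM in nerve. In MIV it had 63, 1 and 5 counts in day 3 replicates 1 to 3 and 101, 3 and 162 counts at day 7. Its place in the set thus rested on 1 count in MIV day 3 replicate 2 (0.0662 CPM), below every nerve library. Against 3 counts over the EV libraries of a day, EV was at least 12.0-fold below the nerve mean at day 3. At day 7 it was at least 12.4-fold below that mean (edgeR adjusted p = 0.0278 at day 3 and 0.0318 at day 7). The day 3 call was lost without any one EV day 3 library (adjusted p = 0.0632 to 0.0710), and the day 7 call without any one EV day 7 library or without nerve replicate 1.

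The largest rises over nerve were of a few counts. ENSRNOG00000008966 had no count in nerve, 2, 10 and 0 counts in EV day 3 replicates 1 to 3 and 6, 9 and 13 counts at day 7 (edgeR adjusted p = 0.0237 and 0.00486). The day 3 call was lost without EV day 3 replicate 2 (adjusted p = 0.222). ENSRNOG00000008919 had 12, 16 and 0 counts at day 3 against 1 count over the 5 nerve libraries (edgeR adjusted p = 0.0192), and its call was lost without EV day 3 replicate 1 or 2 (adjusted p = 0.0544 and 0.0860). At day 7 ENSRNOG00000011533 was at 0.720 to 1.09 CPM in EV and at 0 to 0.243 CPM in nerve, without overlap (log2 fold change 3.37 ± 0.82 SE, edgeR adjusted p = 0.00217).

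The 7 rises at day 3 became 3 without EV day 3 replicate 2, which held the highest EV level of more members than any other EV library. That fit called 26.9% of all genes higher. Leaving out replicate 2 or 3 of MIV day 7, which are in the fit but not in the contrast, gave 14 or 11. Those fits called 31.1% or 30.3% of all genes higher. DESeq2 called 18 higher and 16 lower at day 3, where 30.3% of all genes were higher and 32.6% lower. The 5 rises at day 7 became 3 without EV day 7 replicate 3 (20.3% of all genes higher). They became 9 when MIV day 3 replicate 1 was left out and 10 when MIV day 7 replicate 2 was (24% and 25.5% of all genes higher). The 10 falls became 6 without replicate 1 or 3 of EV day 7 (20% or 20.4% of all genes lower).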

How the data were processed

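The authors deposited 1 table of raw read counts per Ensembl rat gene identifier for 23 libraries, with no normalization, per the file headers and values. CASAVA and HISAT2 were used, per the submitters' processing notes. The counting tool, genome build and annotation: not given in the sources used here. Libraries were made from 350 ng of total RNA with a non-directional kit, per the labels' protocols, so overlapping antisense genes, and near-identical paralogs, have uncertain counts. All columns matched a library title (0 left over). Totals of 12504035 to 17314324 counts set the precision, and bounds against 3 counts cover counting error only.

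CPM used column totals. Tests were edgeR 4.0.16 in R 4.3.3 (filterByExpr with a minimum count of 10 and total of 15, TMM, robust quasi-likelihood fit, 1 coefficient per group, Benjamini-Hochberg adjustment over all genes, threshold 0.05). The 12 repaired libraries were fitted for time courses and MIV against EV (15036 genes, 98 members), and all 23 for comparisons with healthy tissues (15954 genes, 99 members). SE is the log2 fold change divided by the root of F. Alternatives were DESeq2 1.42.0, other scalings, no filter, a replicate block and leaving out each library.

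The scripts were tested on simulated counts, with changes put into genes drawn from the table and not into the members. For MIV day 7 against day 3, 16.4% of 2-fold, 82.1% of 4-fold and 89.4% of 8-fold changes were recovered. The 2-fold figure was 52.2% for MIV day 7 against muscle and 56.7% for EV day 3 against nerve. For genes drawn in this way, small changes over time in MIV were thus mostly missed. Recovery in the members was not tested, so these figures do not describe them. In the measured data 9 of 98 members were called higher at day 7 in MIV. Their median log2 fold change over all 98 was 2.37, with a median SE of 1.12. Genes were named by identifier, as up to 2 called genes of largest log2 fold change in each direction of a comparison, and the 2 of highest mean CPM in MIV. The 4 genes named for relative level were chosen after their values were seen. The members and lists were chosen with earlier results of these data known.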

Additional observations from a re-analysis of the deposited data

Results flagged for a closer look

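In healthy nerve, the 1 group of 5 libraries, the summed share of the 99 genes and the levels of the named genes (15 items) were checked for a library far from the other 4. About 1 in 20 such groups gives one by chance. In 4 items the highest nerve library stood apart, with a gap to the next library of over 0.71 of the group's range. ENSRNOG00000019745 was at 2.43 CPM in nerve replicate 3 and at most 1.70 CPM in the others (33 against 21 to 25 counts). The other 3 rested on 1 to 4 counts: ENSRNOG00000008210 at 0.122 CPM (2 counts) and ENSRNOG00000011533 at 0.243 CPM (4 counts) in nerve replicate 2, and ENSRNOG00000008919 at 0.0735 CPM (1 count) in nerve replicate 3.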

How the results depend on the processing

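The number of genes that met the rule stayed within 1.5 times of 99 under every alternative tried (93 to 120 with other scaling, folds and levels, and 99 to 140 without 1 repaired library). Members called higher in MIV at day 7 than at day 3 numbered 9, and 34 with DESeq2, 2 without the filter, 51 in the 23-library fit and 0 to 54 without 1 library. Over all genes, 7.39%, 13.7%, 3.77%, 14.3% and 1.71% to 12% were called higher in these settings. In EV over time, DESeq2 called 2 higher (14.6% of all genes), and 0 to 1 were called without 1 library (3.23% to 12.5% of all genes higher). Higher than healthy muscle were 0 to 1 at day 3 without 1 library (31% to 34.2% of all genes). At day 7, library totals gave 2 higher and 47 lower, with 69% of all genes higher and 9.08% lower. Higher in EV than in nerve at day 3 were 18 with DESeq2 (30.3% of all genes) and 3 to 14 without 1 library (26.9% to 31.1%). At day 7, 12 were higher with DESeq2 (24.7%), 8 with library totals (31%) and 3 to 10 without 1 library (20.3% to 25.5%). Lower at day 7 were 6 to 10 without 1 library (20% to 25.3%). MIV against EV over both days ranged from 0 to 97 without 1 library, with 0% to 4.21% of all genes higher. The share of calls that were higher from day 3 to day 7 in MIV, over all genes, was 47.7%, and 36.9% with library totals, and the median difference of the time courses over all genes moved by -0.12. The share of the members in muscle was 27.6 per 100 counts when counts of muscle genes were left out of the total. Relative losses at day 7 numbered 21 to 40 without 1 MIV library, while 7.72% to 56.8% of the 544 muscle genes lost (25.6% when MIV day 3 replicate 1 was left out and 56.8% when MIV day 7 replicate 2 was). Here too the 544 were set against the median of the 99. Of 453 alternative values for the named genes, 0 reversed and 40 lost the call. Where a value changed, the cause was not tested, except that leaving out a library leaves fewer samples.

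Deviations from group means were correlated between same-numbered libraries. For MIV and EV the correlations were 0.18 to 0.22 in the 3 pairs at day 7 and -0.09 to 0.24 at day 3. They were -0.15 to 0.13 between MIV days, -0.14 to 0.06 between EV days and -0.18 to 0.14 with healthy muscle and nerve. Deviations within a group sum to 0, so the pairs are not independent. Pairs of unlike number were not computed, so nothing is read from these values. The labels do not tie the numbers to animals. With the replicate number as a block, 2 members were called higher in MIV at day 7 than at day 3 (5.46% of all genes). Called higher in EV than in nerve were 4 at day 3 and 3 at day 7 (26.2% and 19.8% of all genes). In MIV against EV, 46 were called higher. Under the block the named calls of ENSRNOG00000037645 over time in MIV (adjusted p = 0.10, edgeR) and of ENSRNOG00000008966 and ENSRNOG00000008919 against nerve at day 3 (0.0695 and 0.0670) were lost. Members at an unadjusted p under 0.05 went from 51 to 29 over time in MIV and from 7 to 4 in the difference of time courses. Over all genes, calls in MIV against EV went from 1.42% to 0.652% higher and from 0.12% to 0.0732% lower. No other count of members called at an adjusted p under 0.05 moved by over 1.5 times.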
